A study of Mus musculus with 4 samples.

Results

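The genes of the constitutive proteasome were read from libraries of mouse liver cells sorted for the surface protein CD24. They were the rows named Psma, Psmb, Psmc or Psmd with a number, apart from the interferon-induced Psmb8, Psmb9 and Psmb10, together with Psme3 and Psme4. Of 38 such rows among 21878, 37 had at least 10 counts in at least 2 libraries and were kept: 15 genes of the 20S core, 20 named as genes of the 19S cap and 2 activators. The row left out was Psmb11, a catalytic subunit of thymic epithelium, which was listed at 0 in all 4 libraries. All 37 passed the filter on low counts of the test.

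The proteasome is the protease of cytosol and nucleus that degrades proteins marked with ubiquitin. Its 20S core is a barrel of outer rings of alpha subunits, which gate the entry, and inner rings of beta subunits, of which Psmb5, Psmb6 and Psmb7 encode those that cut peptide bonds. The 19S cap, made of a base and a lid, binds ubiquitin chains, removes them, and unfolds the substrate with a ring of ATPases. In cells exposed to interferon the cutting subunits are replaced by Psmb8, Psmb9 and Psmb10, and when the proteasome is impaired the transcription factor NRF1, encoded by Nfe2l1, is known to raise transcription of most subunit genes together.

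There were 2 HACY libraries and 2 CCL4 libraries, from C57BL/6 mice, with CD24+ liver cells collected on magnetic columns (MACS) and labelled as hepatocytes. HACY mice were given a cocktail of 3 small molecules, Y-27632 (a kinase inhibitor), A-83-01 (which blocks type I receptors of TGF-beta) and CHIR99021 (which blocks the kinase GSK3), by injection 3 times a week for 6 weeks. CCL4 mice were given carbon tetrachloride, which injures hepatocytes, in olive oil at 2 ml/kg, 2 times a week for 6 weeks. Mice were 8 weeks old at the injections, per the protocol, and 6 to 8 weeks old per the age label. The labels leave unclear if the cocktail came with carbon tetrachloride, and there were no libraries of untreated mice, so each difference below is HACY relative to CCL4 and belongs to neither treatment alone. Separate mice or pools behind the replicates are not stated, so the p-values cover the spread of these libraries alone, and that spread may be technical.

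The libraries summed to 18467299 to 19314219 counts. In bulk samples a smaller number of cells of a type and less RNA per cell cannot be told apart. Markers of several cell types differed between the groups: the summed level of 8 hepatocyte markers was 26900 and 32900 CPM (counts scaled to a common library size, here without TMM) in HACY and 8870 and 7160 in CCL4, with 7 of 8 called higher. The 8 macrophage markers summed to 3120 and 2130 CPM in HACY and 1020 and 1370 in CCL4, with 7 of 8 called higher. The 10 neutrophil markers summed to 36.3 and 32.7 CPM in HACY and 35.6 and 234 in CCL4, with 1 of 8 tested called lower. The 5 biliary markers summed to 2790 and 3900 CPM in HACY and 1210 and 2290 in CCL4, but 0 of the 5 were called. The 6 endothelial markers summed to 1120 and 830 CPM in HACY and 412 and 686 in CCL4, and went both ways, with 2 called higher and 1 lower. Cd24a, the gene of the sorted protein, had 401 and 341 counts in HACY and 409 and 771 in CCL4. Hepatocyte markers had the highest summed level of the lists in all 4 libraries, and no marker of any list was at 0 in all libraries. The part of these differences in the results below was not tested.

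Proteasome genes differed little between the groups. By edgeR's quasi-likelihood test, fitted over all 13428 tested genes with Benjamini-Hochberg adjustment and a threshold of 0.05, Psmd1 and Psma4 were higher in HACY, Psmd5 was lower, and the other 34 genes were not called. The share called was 8.11% of the 37 genes, against 11.7% of all tested genes (8.19% higher and 3.54% lower) and 12.7% of the 6137 tested genes whose mean CPM lay between those of the least and the most abundant proteasome genes other than Psma8. The number called is thus near the background. An unadjusted p below 0.05 was reached by 5 of the 37 genes, these 3 with Psmb2 and Psmd9. Of all 13428 tested genes a larger share reached it, 2223 higher and 1825 lower in HACY. DESeq2 called the same 3 genes, where it called 15.5% of all tested genes. Psmd1 and Psma4 were called by limma-voom, which called 10.3% of all tested genes. The log2 fold changes (HACY over CCL4) ran from -0.48 to 0.57 with a standard deviation of 0.24 over the 37 genes, against 0.72 over all tested genes and 0.48 over those in the same range of levels.

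For most of the genes that were not called, the interval of the fold change under TMM scaling was narrow. The 95% interval of the fold change stayed within a 1.5-fold change in either direction for 29 of the 34 and within a 2-fold change for 33. Of the 6137 tested genes in the same range of levels, called or not, 3236 and 5322 stayed within these limits. By library size alone the median of all tested genes moved from -0.01 to -0.18, and intervals under that scaling are not given. The exception to the wider limit was Psma8, the testis form of an alpha subunit, with 48 and 50 counts in HACY and 50 and 40 in CCL4, where the log2 interval ran from -0.59 to 1.15. Intervals rest on an approximate standard error, taken from the F statistic (the log2 fold change over its square root).

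**Figure D1:**
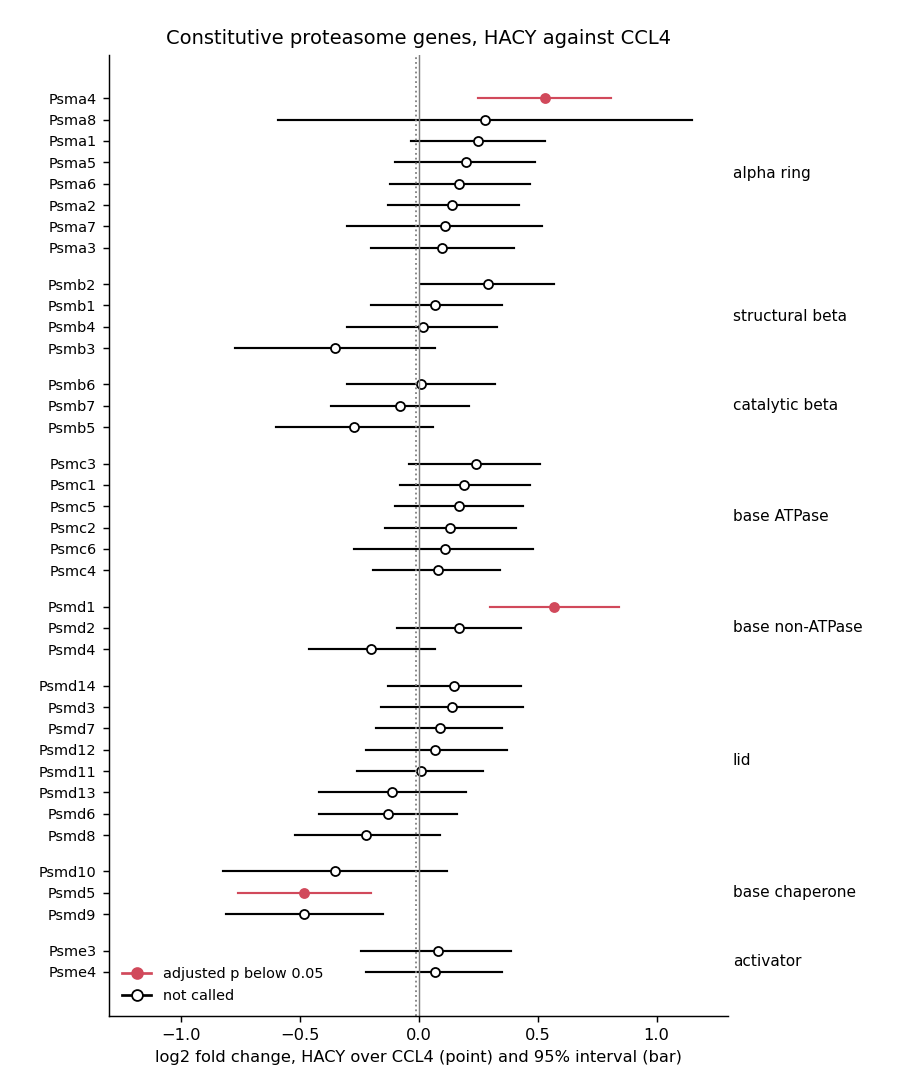
Each row is a proteasome gene, grouped by its place in the complex. The horizontal axis is the log2 fold change, HACY over CCL4, with its 95% interval as a bar, filled red where edgeR's adjusted p is below 0.05, and the dotted line is the median of all tested genes (-0.01). Psmd1 and Psma4 lie to the right, and the base chaperones Psmd5 and Psmd9 lie furthest to the left.

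The 3 called genes are shown with promoter windows, 250 bases before to 50 after the RefSeq start of the gene (GRCm38.p6), because they are the members that edgeR called. The outermost starts in the GENCODE annotation differ from these, at 86064387 for Psmd1 and, on the minus strand, 34874968 for Psmd5. By GENCODE most of the Psmd1 window and all of the Psmd5 window lie inside the gene, so the windows may miss sequence before other starts. Psmb5 is added as a catalytic subunit whose window holds a match to the core of the antioxidant response element bound by NRF1 and NRF2. Capitals mark matches to TGACNNNGC or CCAAT, searched on both strands.
Psmd1 (chr1:86064369-86064668, plus strand): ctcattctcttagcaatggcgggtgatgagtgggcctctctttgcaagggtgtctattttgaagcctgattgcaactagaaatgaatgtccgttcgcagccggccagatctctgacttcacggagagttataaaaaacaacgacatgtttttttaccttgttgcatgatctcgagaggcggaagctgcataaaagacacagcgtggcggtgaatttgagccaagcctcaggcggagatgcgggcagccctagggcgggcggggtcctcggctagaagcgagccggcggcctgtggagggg
Psma4 (chr9:54950609-54950908, plus strand): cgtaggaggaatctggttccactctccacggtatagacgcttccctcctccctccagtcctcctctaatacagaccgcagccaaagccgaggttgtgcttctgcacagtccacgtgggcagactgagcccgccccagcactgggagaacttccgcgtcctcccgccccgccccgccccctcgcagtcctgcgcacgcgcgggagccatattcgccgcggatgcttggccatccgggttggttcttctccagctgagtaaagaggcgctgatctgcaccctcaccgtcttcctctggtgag
Psmd5 (chr2:34870913-34871212, minus strand): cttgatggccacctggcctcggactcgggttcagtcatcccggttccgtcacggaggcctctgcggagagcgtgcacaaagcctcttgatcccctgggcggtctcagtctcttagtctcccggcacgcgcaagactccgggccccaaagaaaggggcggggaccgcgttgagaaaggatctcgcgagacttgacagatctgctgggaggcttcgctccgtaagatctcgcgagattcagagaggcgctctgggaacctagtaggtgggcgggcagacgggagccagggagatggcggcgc
Psmb5 (chr14:54617946-54618245, minus strand): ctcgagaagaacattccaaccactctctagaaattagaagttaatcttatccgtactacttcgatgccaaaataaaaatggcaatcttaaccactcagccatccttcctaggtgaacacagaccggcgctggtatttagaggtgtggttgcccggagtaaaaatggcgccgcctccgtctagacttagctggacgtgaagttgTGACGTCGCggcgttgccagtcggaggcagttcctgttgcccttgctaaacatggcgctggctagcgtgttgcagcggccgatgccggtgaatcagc
The windows of Psmd1, Psma4 and Psmd5 hold neither motif, and that of Psmb5 holds 1 match to TGACNNNGC, on the plus strand of the gene and 47 bases before its start. Of 30 proteasome genes with a window, 6 held TGACNNNGC (Psmb5, Psmb6, Psmc6, Psmd9, Psmd12 and Psme4), or 20%, against 14% of all 27025 genes with a window. CCAAT, the core of the NF-Y box, was in 12 of 30, or 40%, against 41.1% of all genes with a window. These are matches of letters and say nothing of binding.

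Psmd1, which encodes the large scaffold subunit of the cap's base (chromosome 1, 86064387 to 86139151, GRCm38), had 316 and 323 CPM (scaled by TMM, as are the CPM below) in HACY, against 223 and 208 in CCL4. Both HACY libraries lay above both CCL4 libraries, and the gaps between replicates were small. This was a 1.48-fold higher level in HACY (log2 0.57, SE 0.11, edgeR adjusted p = 0.0234). The gene of the serotonin receptor Htr2b, which lies within Psmd1 on the other strand, had 144 and 112 counts in HACY and 63 and 41 in CCL4, few beside the 5785 and 5695 counts of Psmd1 in HACY and the 4401 and 4223 in CCL4. The annotated gene Gm21972, on the same strand, shares 305 transcript bases with Psmd1 at 100% identity and has no row in the tables, so counts there are uncertain.

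Psma4 encodes an alpha subunit of the outer ring (chromosome 9, 54950790 to 54958030). It had 175 and 181 CPM in HACY, against 129 and 118 in CCL4. The groups did not overlap (log2 0.53, SE 0.12, edgeR adjusted p = 0.0337). An annotated processed pseudogene, Gm6542, matches 783 bases of its transcript at 96.8% identity, so counts of Psma4 are uncertain to that extent.

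Psmd5, despite its name, is no subunit of the finished cap but a chaperone that holds ATPase subunits while the base is assembled (chromosome 2, 34849734 to 34874968). It had 103 and 104 CPM in HACY, against 150 and 138 in CCL4. Both HACY libraries were lower than both CCL4 libraries (log2 -0.48, SE 0.12, edgeR adjusted p = 0.0452). It overlaps the gene Cutal on the other strand by 573 bases, and Cutal had 147 and 207 counts in HACY and 168 and 158 in CCL4.

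None of these calls held without HACY replicate 1 or without HACY replicate 2, when edgeR called 0 of the 37 genes. With 1 HACY library, which is then assumed to vary like the CCL4 libraries, 4.57% and 5.65% of all tested genes were called, and 2 and 3 of the 37 genes had an unadjusted p below 0.05. The log2 fold changes stayed at 0.58 and 0.55 for Psmd1, 0.55 and 0.50 for Psma4, and -0.47 and -0.49 for Psmd5. Without CCL4 replicate 1, when 10.5% of all tested genes were called, Psmd5 was lost (adjusted p = 0.0633) and Psmb3 was called lower. Without CCL4 replicate 2, when 22.2% were called, Psmd10 was called lower beside Psmd5. With a block on replicate number, Psmd1 was the 1 call left.

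Other settings also ended calls. By library size alone Psmd1 stood at 0.40 (edgeR adjusted p = 0.056) and Psma4 at 0.36 (0.0879). On the deposited FPKM, by limma, Psmd1 stood at 0.43 (adjusted p = 0.0512) and Psma4 at 0.41 (0.0592). After offsets for GC content and length Psma4 was 0.31 (edgeR adjusted p = 0.114), while Psmd1 kept its call. Psmd5 lost its call by limma-voom (adjusted p = 0.0516).

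In the alpha ring, which forms the gate of the core, all 8 genes had positive log2 fold changes, from 0.10 for Psma3 to 0.53 for Psma4, with a median of 0.19 against -0.01 over all tested genes. In 7 of the 8, all but Psma7, both HACY libraries lay above both CCL4 libraries, where 30.7% of all tested genes did so and 60.8% had groups that did not overlap in either direction. Of the 6137 tested genes in the same range of levels, 35.9% lay above. Psma4 was the 1 gene called. Next by fold came Psma8, at few counts (log2 0.28), and then Psma1, with 141 and 147 CPM in HACY against 117 and 124 in CCL4 (log2 0.25, SE 0.12, edgeR adjusted p = 0.201). Psma7 had 146 and 162 CPM in HACY and 119 and 167 in CCL4, so that the CCL4 replicates spanned both HACY values. Signs and separation depended on the scaling. By upper-quartile scaling both HACY libraries lay above both CCL4 libraries in 5 of the 8 genes, against 26.3% of all tested genes. By library size alone they did so in 2 of the 8, against 20% of all tested genes, and lay below in 1, against 45.4%. There 5 of the 8 log2 fold changes were positive, with a median of 0.02, while the median of all tested genes stood at -0.18. After offsets for GC content and length 6 of the 8 were positive, with a median of 0.03 against -0.06 over all tested genes.

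The beta ring was divided. The 4 structural genes ran from -0.35 for Psmb3 to 0.29 for Psmb2, and none was called. Psmb2 had 146 and 140 CPM in HACY, against 121 and 113 in CCL4, groups that did not overlap (log2 0.29, SE 0.12, edgeR adjusted p = 0.149). Psmb3 had 131 and 121 CPM in HACY, against 132 and 189 in CCL4 (log2 -0.35, SE 0.18, edgeR adjusted p = 0.234). The high value was that of CCL4 replicate 2, and the gap of 0.52 between the CCL4 replicates on the log2 scale exceeded the difference between the groups. The log2 fold change of Psmb3 was -0.59 (edgeR adjusted p = 0.0306) without CCL4 replicate 1 and -0.071 (0.687) without CCL4 replicate 2. Psmb3 has 7 annotated near-identical pseudogenes, the most of any member, which makes its count uncertain.

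The 3 catalytic genes were not called. Psmb5, for the subunit that cuts after hydrophobic residues and is the main target of bortezomib, had 81.2 and 80.8 CPM in HACY, against 88.4 and 107 in CCL4 (log2 -0.27, SE 0.14, edgeR adjusted p = 0.238). The HACY values were below both CCL4 values, but the CCL4 replicates were further apart than the nearer CCL4 value was from HACY. Its log2 fold change was -0.40 without CCL4 replicate 1 and -0.13 without CCL4 replicate 2. Psmb6, for the subunit that cuts after acidic residues, had 144 and 151 CPM in HACY, against 134 and 159 in CCL4 (log2 0.01, 95% interval -0.30 to 0.32). Psmb7, for the subunit that cuts after basic residues, had 130 and 138 CPM in HACY, against 149 and 134 in CCL4 (log2 -0.08, 95% interval -0.37 to 0.21). The groups overlapped for both. Near-identical pseudogenes are annotated for Psmb5 and Psmb6, and the transcript of Psmb7 shares 255 bases with Nek6 on the other strand. Nek6 had 3287 and 3573 counts in HACY and 3182 and 3377 in CCL4. These exceed the counts of Psmb7, 2378 and 2427 in HACY and 2945 and 2720 in CCL4, which are uncertain to that extent.

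In the base of the cap, the 6 ATPase genes lay close together, from 0.08 for Psmc4 to 0.24 for Psmc3, with a median of 0.15 and no call. In 5 of them, all but Psmc6, both HACY libraries lay above both CCL4 libraries. So did 30.7% of all tested genes and 35.9% of those in the same range of levels. Psmc6 had 190 and 180 CPM in HACY and 197 and 147 in CCL4, with the CCL4 replicates 0.42 apart on the log2 scale. By library size alone 2 of the 6 were positive, with a median of -0.02 against -0.18 over all tested genes. All 6 stayed above that median of all genes. There the HACY libraries lay above in 1 gene and below in 1, against 20% and 45.4% of all tested genes. After offsets for GC content and length 4 of the 6 were positive, with a median of 0.02 against -0.06 over all tested genes. Psmd2, the scaffold subunit that also docks ubiquitin shuttles, had 347 and 364 CPM in HACY, against 319 and 314 in CCL4 (log2 0.17, SE 0.11, edgeR adjusted p = 0.356). Psmd4, the ubiquitin receptor of the base, had 182 and 189 CPM in HACY, against 209 and 216 in CCL4 (log2 -0.20, SE 0.11, edgeR adjusted p = 0.295). The groups overlapped for neither gene, and the 2 genes had opposite signs; by library size alone Psmd2 stood at -0.0029.

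The 8 lid genes ran from -0.22 for Psmd8 to 0.15 for Psmd14, with a median of 0.04, and none was called. All 8 had 95% intervals within a 1.5-fold change, as had 3236 of the 6137 tested genes in the same range of levels. Psmd14, the metalloprotease that removes ubiquitin chains, had 136 and 144 CPM in HACY, against 130 and 122 in CCL4, groups that did not overlap (edgeR adjusted p = 0.448). Psmd11, a structural lid subunit, had 255 and 242 CPM in HACY, against 253 and 242 in CCL4. Psmd8, a small lid subunit, had 625 and 743 CPM in HACY, against 810 and 780 in CCL4 (SE 0.13, edgeR adjusted p = 0.309). Psmd13 overlaps the start of Sirt3 on the other strand, which had 105 and 100 counts in HACY and 257 and 259 in CCL4, against at least 2141 for Psmd13.

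The 3 genes counted with the cap by name that are assembly chaperones of its base, and not subunits of the mature particle, were the 3 lowest of the 20. Beside Psmd5, Psmd9 had 37.9 and 36.2 CPM in HACY, against 51.4 and 52.2 in CCL4 (log2 -0.48, SE 0.14, edgeR adjusted p = 0.068). Psmd10, also known as gankyrin, had 30.9 and 29.9 CPM in HACY, against 45.4 and 32.1 in CCL4 (log2 -0.35, SE 0.20, edgeR adjusted p = 0.284). Its value rested on the CCL4 library kept: it was -0.077 (edgeR adjusted p = 0.766) without CCL4 replicate 1 and -0.58 (0.0365) without CCL4 replicate 2. In all 3 both HACY libraries lay below both CCL4 libraries, as in 30.1% of all tested genes, and all 3 signs were negative in every alternative run. These runs reuse the same 4 libraries, so the shared sign is no independent support. Psmd9 was called lower by upper-quartile scaling (-0.55, edgeR adjusted p = 0.0489) and library size alone (-0.65, edgeR adjusted p = 0.0264). It was also called lower on the deposited FPKM (-0.56, limma adjusted p = 0.0336) and after offsets for GC content and length (-0.58, edgeR adjusted p = 0.0248). In these settings, in this order, 614, 1355, 664 and 999 of all tested genes were lower, against 476 by TMM. The median of all tested genes there was -0.07, -0.18, -0.1 and -0.06, against -0.01 by TMM. No other setting called Psmd9. Psmd9 overlaps Hpd, a tyrosine catabolism gene that was higher in HACY (1320 and 1259 counts, against 530 and 510 in CCL4; log2 1.47, edgeR adjusted p = 0.00201), on the other strand. Whether the counting used strand is not given in the sources used here.

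The activators Psme3, which caps nuclear cores without need of ubiquitin, and Psme4, a large nuclear activator known from chromatin and sperm, had CPM that overlapped between the groups. Psme3 had 252 and 257 CPM in HACY, against 264 and 217 in CCL4 (log2 0.08, 95% interval -0.24 to 0.39). Psme4 had 153 and 157 CPM in HACY, against 155 and 141 in CCL4 (log2 0.07, 95% interval -0.22 to 0.35). By library size alone both signs turned negative (-0.094 and -0.11), where the median of all tested genes was -0.18.

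Core and cap were then compared. The median log2 fold change was 0.11 for the 15 core genes and 0.08 for the 20 cap genes, and 0.11 for the 17 cap genes without the chaperones, against -0.01 for all tested genes. The members are a chosen list, so these medians carry no test. Relative to the median of all tested genes, the core median stood at 0.12 and the cap median at 0.09 by TMM as well as by library size alone, where the medians themselves were -0.06 and -0.09 and that of all genes was -0.18. After offsets for GC content and length they were 0.04 and -0.02 relative to all genes. As a share of raw counts, the 37 genes took 0.605% and 0.602% in HACY, against 0.663% and 0.644% in CCL4, so the direction of the whole group turned with the scaling.

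**Figure D2:**
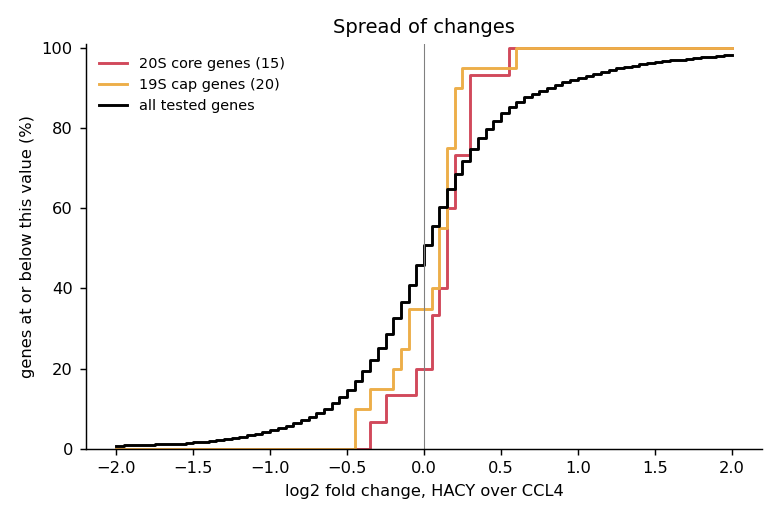
The curves give the percentage of genes (vertical axis) at or below each log2 fold change, HACY over CCL4 (horizontal axis, shown from -2 to 2), for the 15 core genes, the 20 cap genes and all 13428 tested genes. Core and cap curves rise close together and more steeply than the curve of all genes, with standard deviations of 0.22 and 0.26 against 0.72.

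**Figure D3:**
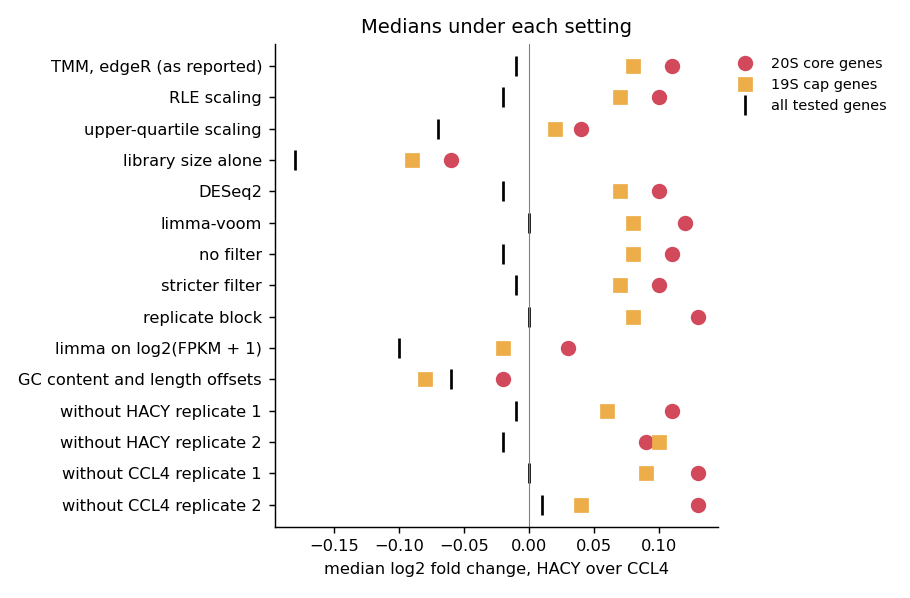
Points are the median log2 fold change of core and cap genes, and the bar that of all tested genes, under each scaling, test, filter and left-out library. Core and cap medians lie between -0.09 and 0.13, and by library size alone all 3 medians lie to the left of their place by TMM.

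Per library, the ratio of core to cap RNA, from FPKM summed over the genes, was 0.900 and 0.872 in HACY, against 0.799 and 0.904 in CCL4. The CCL4 replicates enclosed both HACY values, and the exact two-sided permutation p was 1, where 2 against 2 libraries cannot give less than 0.333. Without Psmd8, which alone made up a large part of the cap's sum, the ratio was 1.09 and 1.09 in HACY, against 1.03 and 1.16 in CCL4. The ratio of median FPKM was 1.41 and 1.38 in HACY, against 1.25 and 1.16 in CCL4, groups that did not overlap.

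Levels per length, as FPKM, were compared among the 37 genes, and no other gene set was put beside them. Means over the libraries ran from 1.21 for Psma8 to 390 for Psmd8. The mean over the 4 libraries lay between 59.8 and 231 FPKM for 31 of the 37 genes, from Psmd5 to Psmb3. Psmd8 stood above them, with 323 and 373 FPKM in HACY and 446 and 419 in CCL4. Below them were Psmd10 (23.9), Psma3 (23.2), Psme4 (20.4), Psmd9 (16.3) and Psma8 (1.21 FPKM as means over libraries), so 2 of the 3 chaperones were expressed below all other cap genes. Psme4, the longest of them, ranked 35 by FPKM but 14 by count. The length implied by count and FPKM was above the longest annotated transcript in 20 of the 37 genes, so levels per length are uncertain in general. Psma3 also has 3 annotated near-identical pseudogenes. Of the 36 pairs of neighbours in this order, 32 had ranges over the 4 libraries that overlapped.

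**Figure D4:**
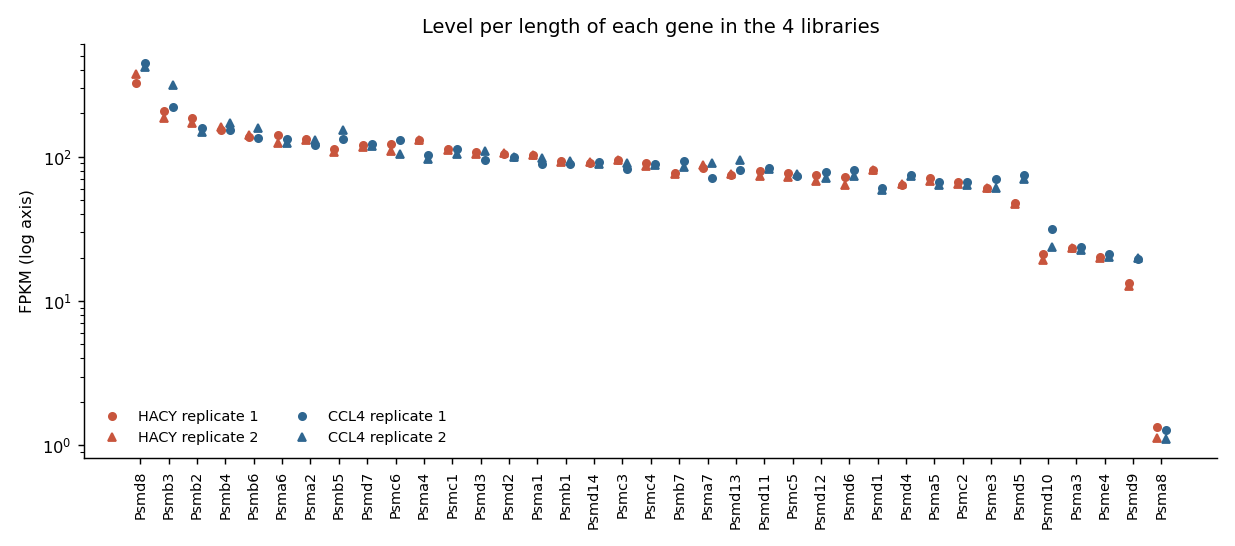
The vertical log axis is the deposited FPKM of each proteasome gene in the 2 HACY libraries (left of each pair of columns) and the 2 CCL4 libraries (right), with genes in order of their mean. Most genes lie within a band of 59.8 to 231 FPKM, with Psmd8 above it and Psmd10, Psma3, Psme4, Psmd9 and Psma8 below it.

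Replicates of proteasome genes were closer in HACY than in CCL4. The median absolute gap between replicates was 0.06 in HACY and 0.13 in CCL4 on the log2 scale, against 0.11 and 0.19 over the 6137 tested genes in the same range of levels and 0.16 and 0.25 over all tested genes. In 16 of the 37 genes the gap between CCL4 replicates exceeded the difference between the groups, and in 7 the gap between HACY replicates did. This count was not made over all tested genes, so it has no background. Differences between the groups were also smaller in the 37 genes. Their median absolute log2 fold change was 0.15, against 0.22 over tested genes in the same range of levels and 0.3 over all tested genes. The largest CCL4 gaps were those of Psmb3 (0.52) and Psma7 (0.48), higher in replicate 2, and Psmd10 (0.50) and Psmc6 (0.42), higher in replicate 1. CCL4 replicate 2 is also the library with the high neutrophil markers, and any part of that in these gaps was not tested.

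The induced counterparts of the catalytic subunits were set beside the constitutive genes. Of 5 immunoproteasome genes 4 were higher in HACY, where 8.19% of all tested genes were. Psmb8, which replaces Psmb5, had 85.6 and 80.0 CPM in HACY, against 34.9 and 52.6 in CCL4 (edgeR adjusted p = 0.0306). Psmb9, which replaces Psmb6, had 23.2 and 18.3 CPM in HACY, against 11.2 and 9.76 in CCL4 (edgeR adjusted p = 0.0306). Psmb10, which replaces Psmb7, had 46.1 and 38.4 CPM in HACY, against 22.1 and 24.8 in CCL4 (edgeR adjusted p = 0.0245). In all 3 both HACY libraries were above both CCL4 libraries, as in 30.7% of all tested genes. Psme1, of the interferon-induced activator, had 122 and 113 CPM in HACY, against 67.5 and 84.1 in CCL4 (edgeR adjusted p = 0.0364). Its partner Psme2, which was not called, had 60.1 and 57.8 CPM in HACY, against 44.9 and 42.1 in CCL4 (edgeR adjusted p = 0.0826). Within each library, the FPKM ratio of Psmb8 to Psmb5 was 0.597 and 0.576 in HACY, against 0.213 and 0.283 in CCL4. The ratio of Psmb9 to Psmb6 was 0.135 and 0.106 in HACY, against 0.0686 and 0.0493 in CCL4, and that of Psmb10 to Psmb7 was 0.155 and 0.136 in HACY, against 0.0766 and 0.0838 in CCL4. No groups overlapped, and each exact two-sided permutation p was 0.333, the smallest that 2 against 2 can give (0.444 after Benjamini-Hochberg adjustment over the 4 ratios tested). None of the 4 calls held without HACY replicate 1 or HACY replicate 2. The call of Psme1 was also lost by upper-quartile scaling (edgeR adjusted p = 0.0532), by library size alone (0.0687), on log2(FPKM + 1) (0.0531, by limma) and without CCL4 replicate 1 (0.0545), and that of Psmb8 on log2(FPKM + 1) (0.0505, by limma). Macrophage markers, at 3120 and 2130 CPM in HACY against 1020 and 1370 in CCL4, were higher in the same libraries, and their part in this result was not tested.

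**Figure D5:**
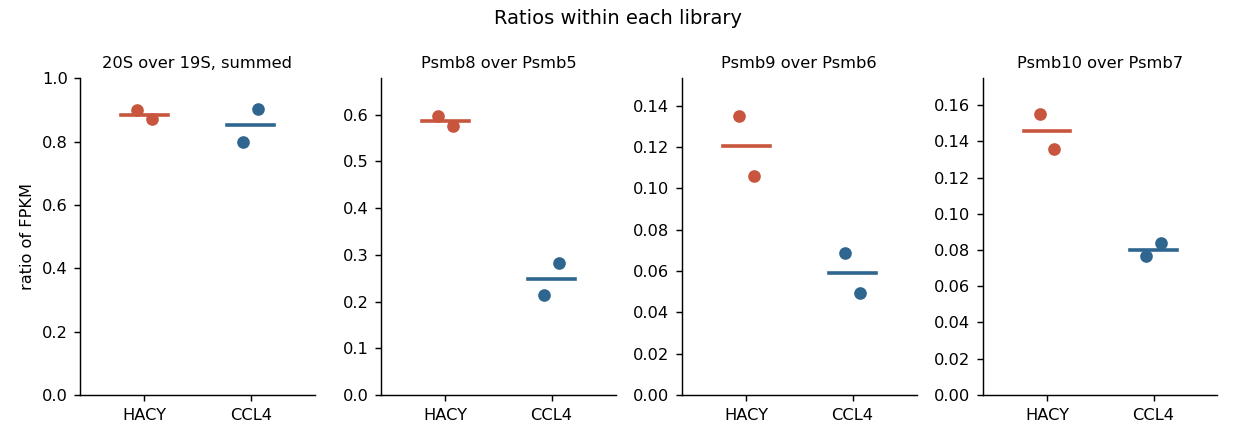
Each panel plots a ratio of FPKM (vertical axis, from 0) in the 2 HACY and the 2 CCL4 libraries as points, with the group mean as a bar. The core to cap ratio overlaps between the groups (HACY 0.900 and 0.872, CCL4 0.799 and 0.904), while the 3 ratios of induced to constitutive catalytic subunits lie higher in both HACY libraries.

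Other genes of the ubiquitin and proteasome pathway were followed in 7 lists. Of 48 genes tested 4 were higher, all of the immunoproteasome list, and 2 lower. These are 12.5% of the 48, near the 11.7% of all tested genes, and the median over the 48 was 0, against -0.01 over all tested genes. The 2 lower genes were among 11 regulators and associated subunits of the 26S particle. Akirin2, which carries proteasomes into the nucleus, had 38.3 and 35.5 CPM in HACY, against 71.8 and 64.9 in CCL4 (log2 -0.89, SE 0.14, edgeR adjusted p = 0.0108; 0.0746 without HACY replicate 2). Zfand2a, an arsenite- and heat-induced partner of the proteasome, had 131 and 134 CPM in HACY, against 257 and 193 in CCL4 (log2 -0.77, SE 0.16, edgeR adjusted p = 0.0248; 0.0952 and 0.0817 without HACY replicate 1 and 2). The groups did not overlap for either gene.

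Of 5 further assembly factors edgeR called none, DESeq2 called 1 and 2 had an unadjusted p below 0.05. For scale, DESeq2 called 15.5% of all tested genes. An unadjusted p below 0.05 in edgeR was reached by 2223 higher and 1825 lower genes of 13428. Psmg3, of a chaperone of the alpha ring, had 12.6 and 13.2 CPM in HACY, against 19 and 23.9 in CCL4 (log2 -0.73, edgeR adjusted p = 0.0603; 0.0355 by DESeq2). Pomp, the maturation factor of the core, had 96.9 and 106 CPM in HACY, against 74.1 and 77.3 in CCL4 (log2 0.42, edgeR adjusted p = 0.0722). Of 6 ubiquitin and E1 genes edgeR called none, DESeq2 called 1 and 3 had an unadjusted p below 0.05. Among these 3 genes Rps27a, a fusion of ubiquitin and a ribosomal protein, had a log2 fold change of -0.40 (edgeR adjusted p = 0.0743). None of 5 shuttle factors, 7 genes of the p97 segregase and 9 genes around NRF1 and NRF2 was called by edgeR, by DESeq2 or by limma-voom, and none reached an unadjusted p below 0.05 in edgeR. Nfe2l1 itself had 238 and 235 CPM in HACY, against 205 and 214 in CCL4 (log2 0.18, SE 0.11, edgeR adjusted p = 0.343).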

How the data were processed

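RNA of the sorted cells was purified on columns and sequenced as stranded paired-end mRNA libraries, per the labels' protocols. For every gene symbol, the deposited tables give raw whole-number read counts and FPKM, per the file headers. The FPKM were computed by the authors and are relative to gene length and library size, per the file headers. The submitters' processing notes name the build mm10 and the tools Trimmomatic, HISAT2, Cufflinks, HTSeq and DESeq, without their versions or order. Which annotation and strand setting were used is not given in the sources used here.

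The counts entered edgeR 4.0.16 (R 4.3.3) with filterByExpr (minimum count 10, minimum total 15), TMM scaling and a robust quasi-likelihood fit on treatment alone, two-sided, adjusted by Benjamini-Hochberg over 13428 genes. The biological coefficient of variation was 16.5%. Chi-square per degree of freedom between replicates was 19.8 in HACY and 35.6 in CCL4, so none is a copy. Titles gave the groups and replicate numbers, and the labels give no batch.

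Values per library are given for called members, catalytic subunits, ubiquitin receptors, Psmd14, chaperones, activators and the extremes of core and cap; genes named beyond these were chosen after their values were seen. Values of some pathway genes are not reported here. Members and gene lists were chosen with earlier results of these data known. Positions, overlaps and transcripts came from GENCODE M21 (GRCm38, the assembly of mm10) and promoters from RefSeq. Near-identical copies are annotated transcripts of other genes matching at least 200 bases at 90% identity or more with blastn 2.17.0; they were found for 15 members. Alternatives were other scalings, DESeq2 1.42.0, limma 3.58.1 (voom, and log2(FPKM + 1)), filters, a block on replicate number and each library left out. Added after seeing the data were offsets for GC content and length (splines, for 97% of tested genes), medians without the chaperones or Psma8, and catalytic ratios from CPM. Intervals and p-values cover counting error and the spread between 2 libraries a group.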

Additional observations from a re-analysis of the deposited data

How the results depend on the processing

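Beside 1576 calls over all tested genes, leaving out 1 library gave 629 (without HACY replicate 1) to 3047 (without CCL4 replicate 2), and 780 without HACY replicate 2. The cause was not tested, nor was that of the other shifts below. Of all 13428 tested genes, 1100 were called higher and 476 lower by TMM. These counts were 925 and 614 by upper-quartile scaling, 856 and 1355 by library size alone, and 1026 and 352 by limma-voom. On log2(FPKM + 1) they were 670 and 664 of 11179 tested genes, and after the GC content and length offsets 1273 and 999 of 13024. The 2 proteasome genes called higher became 0 by library size alone and on log2(FPKM + 1), 1 after offsets for GC content and length, and 0 to 2 with 1 library left out. The 1 called lower became 2 by upper-quartile scaling, library size alone and log2(FPKM + 1), 3 after the GC content and length offsets (Psmb3, Psmd5 and Psmd9), 0 by limma-voom, and 0 to 2 with 1 library left out. Calls in the pathway lists, 6 in all, ran from 0 (without HACY replicate 2) to 9 (without CCL4 replicate 2), with 1 without HACY replicate 1.

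With a replicate block, 1 proteasome gene was higher, 0 were lower, the core median was 0.13 and 1224 genes were called in all. The replicate numbers are not said to mark a shared mouse or day. Deviations of same-numbered libraries correlated at -0.0835 across genes. With 2 libraries a group, this value cannot tell if same-numbered libraries shared a day or handling.

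The core median, 0.11, was 0.044 by upper-quartile scaling, -0.063 by library size alone, 0.12 by limma-voom, 0.033 on log2(FPKM + 1), -0.024 after the GC content and length offsets, and 0.092 to 0.13 with 1 library left out. The cap median, 0.08, was -0.09 by library size alone, -0.017 on log2(FPKM + 1), -0.081 after the offsets and 0.036 to 0.1 with 1 library left out. Core minus cap, 0.026, ran from -0.012 (without HACY replicate 2) to 0.1 (without CCL4 replicate 2), and was 0 without the 3 chaperones. The core to cap ratio averaged 1.4 in HACY and 1.21 in CCL4 from median FPKM, and 0.423 and 0.408 from summed CPM, against 0.886 and 0.852 from summed FPKM. Ratios from CPM in place of FPKM, which differ by gene length, were 1.02 in HACY and 0.443 in CCL4 for Psmb8 over Psmb5, and 0.317 and 0.167 for Psmb10 over Psmb7.

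Of 420 values of single genes under an alternative, 349 kept direction and side of the threshold, 31 lost a call, 23 gained one and 17 changed sign, none of them called. By upper-quartile scaling Psmb6 was -0.05. By library size alone, where the median of all tested genes was -0.18, Psmb6 was -0.16, Psmd2 -0.0029, Psmd14 -0.023, Psme3 -0.094 and Psme4 -0.11. On log2(FPKM + 1) Psmb6 was -0.059, Psme3 -0.1 and Psme4 -0.059, and after the offsets Psmb6 was -0.11, Psmd14 -0.073, Psme3 -0.036 and Psme4 -0.04. With 1 library left out Psmb6 ran from -0.1 to 0.14, Psme3 from -0.056 to 0.23 and Psme4 from -8e-04 to 0.14. Depth limits Psma8 alone among the members, at 40 to 50 counts a library.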
